A study of Mus musculus with 25 samples.

Results

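The Homer scaffold genes Homer1, Homer2 and Homer3, the activity-regulated cytoskeleton gene Arc and the transcription factor gene Npas4 were followed in the pituitaries of 25 hypogonadal mice. They were chosen by symbol as activity-induced synaptic genes, 5 of the 47069 rows of the deposited table. All 5 passed the filter on low values that left 19141 genes for testing. Each symbol had 1 row. The choice was made with earlier results of these data known, among them the call of Homer1 for GnRH in males. The values of the 5 genes in that comparison are therefore given as a description, without a p-value. All animals were hpg/hpg, a deletion that leaves the mouse without its own gonadotropin-releasing hormone (GnRH), so none of the groups had an intact GnRH gene. The 6 GnRH females and 8 GnRH males received 1 µg GnRH intraperitoneally each day for 10 days, and the 5 placebo females and 6 placebo males received saline. Pituitaries were taken 1 h after the last injection, and polyadenylated RNA of the tissue was sequenced. Animals carry the numbers of the labels, 1 to 25. Their age is not given in the sources used here.

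Values are regularized log2 values, in which a difference of 1 is a doubling on that scale. The transformation draws a gene's values towards its own mean, most for genes with few reads, and thereby makes the differences of low genes smaller. Depth is unknown, since no counts were analysed. Library medians ran from 8.09 to 8.13, and libraries correlated with each other at 0.992 to 0.998. The pituitary hormone genes Gh and Prl averaged 21.45 and 17.40, as background to the tissue label.

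In neurons, Homer proteins bind short proline-rich stretches of inositol trisphosphate receptors, ryanodine receptors and Shank proteins through an EVH1 domain. Long forms also carry a coiled coil through which they join into tetramers and so tie these partners together. Homer1 gives in addition a short form without the coiled coil, known as Homer1a, which is induced by synaptic activity and uncouples the long forms. Arc is an immediate early gene whose protein takes part in the endocytosis of AMPA receptors and derives from a retrotransposon Gag protein. Npas4 is a bHLH-PAS transcription factor that pairs with Arnt or Arnt2 and is induced by calcium entry after depolarization. GnRH acts on gonadotropes, the pituitary cells that make luteinizing and follicle-stimulating hormone, through a Gq-coupled receptor that raises calcium.

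The start regions of 3 of the genes are shown first, those of Homer1 and Npas4, which were high after GnRH, and that of Homer2, which was not. Each line holds the 250 bases before a RefSeq start site (GRCm38.p6), read on the strand of the gene, and capitals mark TGACG or its complement CGTCA, the core of the cAMP response element. Homer1, at the first of its start sites, is chr13:93303507-93303756 on the plus strand. Npas4 is chr19:4989972-4990221 and Homer2, at the first of its start sites, is chr7:81706926-81707175, both on the minus strand. The annotation used for the loci below places some starts farther upstream. Its coding Npas4 transcript begins at 4990316, so the Npas4 window lies inside that transcript. The windows of Homer1 and Homer2 likewise lie inside the loci given below. Positions here are counted from the RefSeq start.
Homer1: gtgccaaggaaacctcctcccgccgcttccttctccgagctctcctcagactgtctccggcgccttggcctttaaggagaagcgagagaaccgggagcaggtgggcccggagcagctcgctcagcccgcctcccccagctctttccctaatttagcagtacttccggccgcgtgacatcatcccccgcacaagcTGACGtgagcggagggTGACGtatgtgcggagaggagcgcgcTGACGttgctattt
Npas4: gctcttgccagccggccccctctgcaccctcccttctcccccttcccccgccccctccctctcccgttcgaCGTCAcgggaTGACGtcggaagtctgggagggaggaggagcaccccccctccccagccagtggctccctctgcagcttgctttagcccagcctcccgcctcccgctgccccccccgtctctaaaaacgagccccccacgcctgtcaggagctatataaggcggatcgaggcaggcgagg
Homer2: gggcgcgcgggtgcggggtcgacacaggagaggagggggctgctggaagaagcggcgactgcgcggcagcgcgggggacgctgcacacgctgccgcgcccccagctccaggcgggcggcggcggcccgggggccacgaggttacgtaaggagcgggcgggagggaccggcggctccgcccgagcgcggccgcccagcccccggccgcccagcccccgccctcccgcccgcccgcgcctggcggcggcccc
Homer1 held 3 copies of TGACG, beginning at -56, -40 and -14 from its start site, and Npas4 held 2 copies, beginning at -179 and -169. Homer2 held none, and neither did the second start sites of Homer1 and Homer2 or the start of Homer3. At least 1 copy on either strand was found in 17.8% of 32851 promoters of the same length, at least 2 in 3.9% and at least 3 in 0.688%. The full element TGACGTCA, the AP-1 site TGANTCA, the CArG box and the NR4A monomer site AAAGGTCA had no match in the windows of the members, and the windows of all promoters held them in 1.55%, 6.75%, 1.47% and 1.34% of cases. The EGR site GCGNGGGCG matched once, in Homer2, and in 4.7% of all promoters. TGACG is contained in TGACGTCA. Of the 5 members 4 had an entry, and Arc had none. These matches describe the letters and say nothing of whether a factor bound there. Their part in the values after GnRH was not tested.

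Homer1 lies at chr13:93299635-93405129 on the plus strand (GRCm38, identifier ENSMUSG00000007617). The annotation gives it 11 coding transcripts, whose proteins run from 180 to 370 residues. The deposited row is 1 value per gene, so the short and the long forms could not be told apart. The GnRH females 6 to 11 had 10.80, 10.46, 11.93, 11.12, 8.90 and 10.41, against 9.57, 9.08, 8.64, 9.24 and 8.89 in the placebo females 1 to 5. Of the GnRH females, 5 of 6 lay above every placebo female, and animal 10 lay among the placebo animals. The mean was 10.61 ± 1.00 in GnRH females (SD, n = 6) and 9.08 ± 0.35 in placebo females (SD, n = 5), a log2 difference of 1.52 with SE 0.38 and a 95% interval from 0.74 to 2.30, or 2.87-fold on this scale. Across all genes tested this did not pass, with a limma adjusted p of 0.135, while an exact two-sided permutation test of Homer1 alone gave p = 0.0173. Intervals and exact permutation p-values of single genes, here and below, are adjusted neither for the number of genes nor for the choice of members. They do not offset an adjusted p that did not pass. Without animal 10 the difference was 1.86 and the adjusted p 0.00608, the only one of the 11 fits without 1 female animal in which Homer1 passed.

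In males, Homer1 was high in every animal given GnRH. The GnRH males 18 to 25 had 11.82, 9.88, 11.31, 11.89, 10.32, 10.98, 10.13 and 10.97, against 9.42, 8.23, 8.38, 9.37, 8.98 and 8.91 in the placebo males 12 to 17. The groups did not overlap, with 9.88 in the lowest GnRH male and 9.42 in the highest placebo male. The mean was 10.91 ± 0.75 in GnRH males (SD, n = 8) and 8.88 ± 0.49 in placebo males (SD, n = 6), a log2 difference of 2.03 with SE 0.34 and a 95% interval from 1.33 to 2.73, or 4.09-fold. Animals 18 and 21 were the highest 2, and without both the difference was 1.72. Homer1 was the member called in this comparison, 1 of 5, where 0.449% of all genes tested were called higher and 0.345% were higher without overlap. Since the members were chosen with that call known, nothing is read from the count.

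Homer2 encodes a long, coiled-coil Homer that is made in many tissues. It lies at chr7:81600481-81707527 on the minus strand (ENSMUSG00000025813). The GnRH females had 9.48, 9.78, 10.05, 10.09, 9.68 and 9.66, against 10.19, 9.84, 10.11, 9.70 and 9.97 in the placebo females. The groups overlapped, although 3 of the 6 GnRH females lay below every placebo female. The difference in females was -0.17 with SE 0.12, a 95% interval from -0.42 to 0.07 and a limma adjusted p of 0.638. The GnRH males had 9.68, 9.61, 9.80, 9.68, 9.60, 10.04, 9.56 and 9.73, against 10.06, 9.55, 10.14, 9.83, 9.63 and 10.12 in the placebo males. Every GnRH male lay within the range of the placebo males. The difference in males was -0.18 with SE 0.10 and a 95% interval from -0.39 to 0.04. The upper ends of the intervals thus allow a rise of no more than 0.07 in females and 0.04 in males.

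Homer3, the remaining long Homer, is known from cerebellar Purkinje cells and from T cells. It lies at chr8:70282827-70294361 on the plus strand (ENSMUSG00000003573) and overlaps Ddx49 on the other strand. The strand setting of the counting is not given in the sources used here, so reads of the overlapping parts may be uncertain. The GnRH females ran from 6.53 over a median of 6.65 to 6.82, against 6.63, 6.67 and 6.69 in the placebo females. The GnRH males ran from 6.59 over a median of 6.64 to 6.80, against 6.61, 6.65 and 6.90 in the placebo males. All 25 libraries thus lay between 6.53 and 6.90. The difference was 0.0066 in females (SE 0.059, 95% interval from -0.11 to 0.13, limma adjusted p = 0.978) and -0.020 in males (SE 0.053, 95% interval from -0.13 to 0.09). Homer3 was the lowest of the members, at the 34.1 percentile of the genes tested by mean, where the shrinkage of the scale weighs more.

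**Figure D1:**
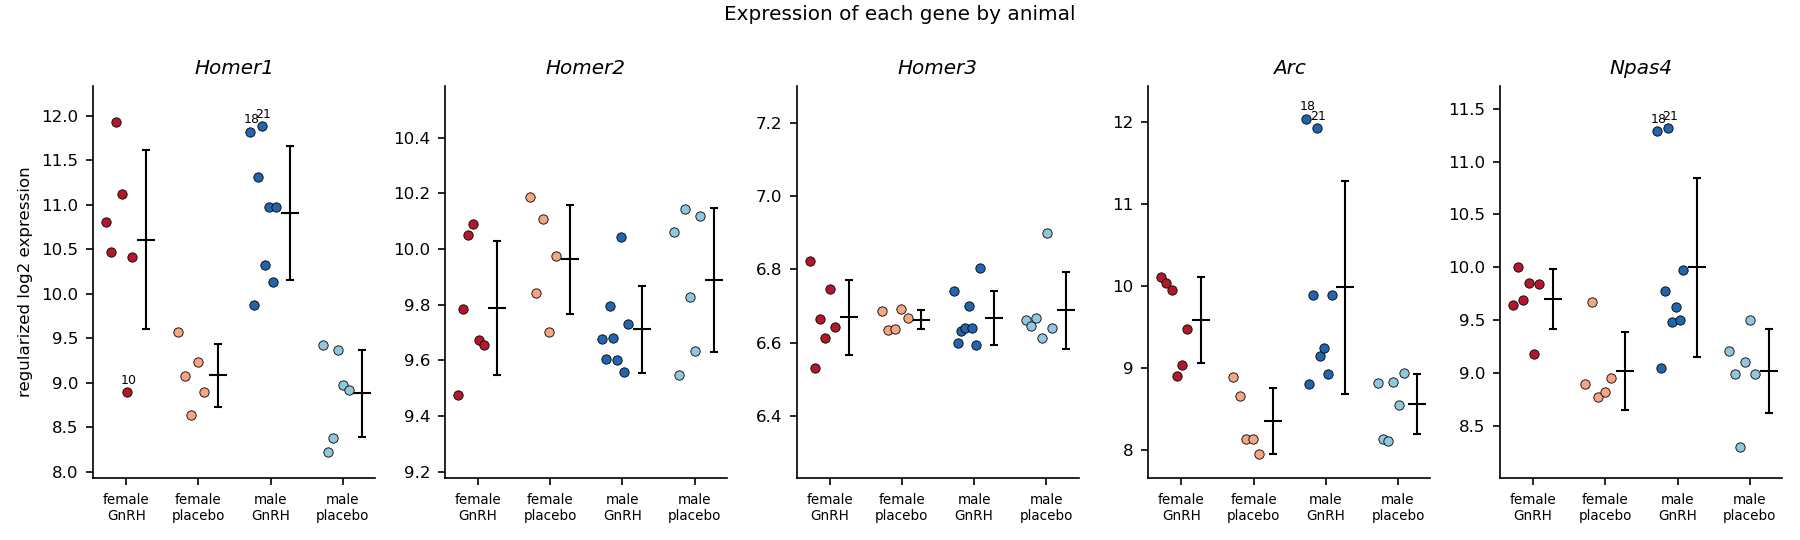
Regularized log2 value of each member in every library (points) with the mean and SD beside them, for GnRH females, placebo females, GnRH males and placebo males. Each panel has its own vertical axis, which does not start at 0. Homer1, Arc and Npas4 are high in GnRH animals and spread more widely there than in placebo animals, except Npas4 in females, with animals 18 and 21 highest among males for Arc and Npas4, while Homer2 and Homer3 overlap between the groups.

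Arc lies at chr15:74669083-74672570 on the minus strand (ENSMUSG00000022602) and encodes a protein of 396 residues. The GnRH females 6 to 11 had 10.11, 10.04, 9.95, 8.90, 9.04 and 9.47, against 8.88, 8.65, 8.13, 8.13 and 7.95 in the placebo females 1 to 5. Every GnRH female lay above every placebo female, the closest pair being animal 9 at 8.90 and animal 1 at 8.88. The mean was 9.58 ± 0.53 in GnRH females (SD, n = 6) and 8.35 ± 0.40 in placebo females (SD, n = 5), a log2 difference of 1.23 with SE 0.44, a 95% interval from 0.33 to 2.14 and a fold of 2.35. The limma adjusted p was 0.360. The exact two-sided permutation p of Arc alone was 0.00433, the smallest that 462 assignments of the animals allow. Arc was the only member without overlap in females, 1 of 5, where 0.528% of all genes tested were higher without overlap.

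Arc in males was far apart in animals 18 and 21. The GnRH males 18 to 25 had 12.04, 8.80, 9.89, 11.93, 9.14, 9.24, 8.92 and 9.89, against 8.81, 8.12, 8.10, 8.83, 8.54 and 8.94 in the placebo males 12 to 17. Animals 18 and 21 lay more than 2 above the next GnRH male, whereas animals 19 and 24 lay within the range of the placebo males. The mean was 9.98 ± 1.30 in GnRH males (SD, n = 8) and 8.56 ± 0.37 in placebo males (SD, n = 6), a log2 difference of 1.42 with SE 0.40 and a 95% interval from 0.61 to 2.23, or 2.68-fold. Without animals 18 and 21 the difference was 0.76.

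Npas4 lies at chr19:4984355-4990316 on the minus strand (ENSMUSG00000045903) and encodes a protein of 802 residues. The GnRH females 6 to 11 had 9.64, 10.00, 9.69, 9.85, 9.18 and 9.84, against 8.90, 9.67, 8.77, 8.82 and 8.95 in the placebo females 1 to 5. The placebo female 2 lay among the GnRH animals and the other placebo females below all of them. The mean was 9.70 ± 0.29 in GnRH females (SD, n = 6) and 9.02 ± 0.37 in placebo females (SD, n = 5). This is a log2 difference of 0.68 with SE 0.30, a 95% interval from 0.06 to 1.30 and a fold of 1.60. It did not pass, with a limma adjusted p of 0.480, and the exact two-sided permutation p was 0.0130. Without animal 2 the difference was 0.84, with a limma adjusted p of 0.294.

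The GnRH males 18 to 25 had 11.29, 9.05, 9.77, 11.31, 9.48, 9.62, 9.50 and 9.98 for Npas4, against 9.20, 8.99, 8.30, 9.10, 9.50 and 8.99 in the placebo males 12 to 17. Animals 18 and 21 were again more than 1 above the others, and 5 of the 8 GnRH males lay above every placebo male. The log2 difference was 0.98 with SE 0.27 and a 95% interval from 0.43 to 1.54, or 1.98-fold. It was 0.55 without animals 18 and 21.

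Of the 5 members, 0 passed the limma test across all genes in females, where 0.0993% of all genes were called, and 3 (Homer1, Arc and Npas4) had an unadjusted p under 0.05, as did 9.57% of all genes. In whole pituitary RNA, more cells of a type and more RNA per cell cannot be told apart. Markers of gonadotropes were taken beside the members. The mean over 7 gonadotrope markers, all of them detected, ran from 10.2 to 10.5 in GnRH females against 9.69 to 10.03 in placebo females. It ran from 10.13 to 10.59 in GnRH males against 9.69 to 9.97 in placebo males, and 1 of 7 was called in females and 2 of 7 in males. The markers did not move together. Fshb averaged 11.84 in GnRH females against 9.77 in placebo females and 12.14 in GnRH males against 9.37 in placebo males, and Lhb, Cga, Gnrhr and Tgfbr3l also had higher means with GnRH in both sexes. The lineage factor Nr5a1 averaged 9.63 in GnRH females against 9.99 in placebo females and 9.60 in GnRH males against 10.00 in placebo males. Foxl2 averaged 6.89 in GnRH females against 7.28 in placebo females and 6.94 in GnRH males against 7.15 in placebo males. Endothelial markers ran from 9.90 to 10.18 in GnRH females against 9.79 to 9.98 in placebo females and from 9.86 to 10.24 in GnRH males against 9.86 to 9.94 in placebo males, with 0 of 5 called in females and 1 of 5 in males. The part of these markers in the values of the members was not tested. The members are best known from neurons, so 9 neuron markers were listed too. Gad1 and Neurod6 had means under 3, and 0 of the 7 others were called in either sex. The mean over all 9 neuron markers includes Gad1 and Neurod6 and is lowered by them. It ran from 6.19 to 6.31 in GnRH females against 6.12 to 6.37 in placebo females. In males it ran from 6.16 to 6.31 on GnRH against 6.21 to 6.29 on placebo. Limma called 0 genes in either sex on the marker lists of the posterior lobe, glia, somatotropes, lactotropes, thyrotropes, corticotropes and melanotropes, stem cells, fibroblasts and pericytes, macrophages, blood and skeletal muscle.

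**Figure D2:**
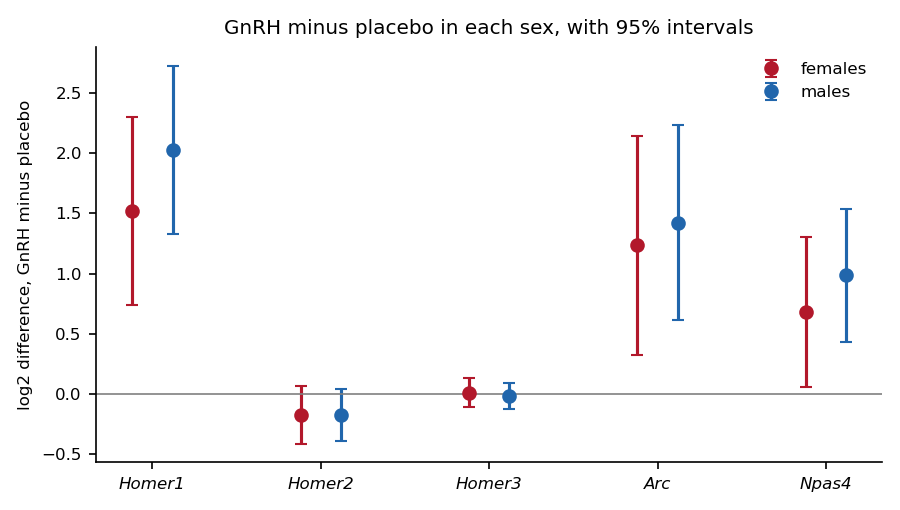
Log2 difference of each member with its 95% limma interval, for GnRH minus placebo in females and in males. The differences of Homer1, Arc and Npas4 are above 0 in both sexes, from 0.68 to 2.03. Those of Homer2 and Homer3 lie between -0.18 and 0.01.

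No difference between the sexes passed the test for any member. The effect of GnRH in males minus that in females was 0.51 for Homer1 (95% interval from -0.54 to 1.56), 0.19 for Arc (from -1.03 to 1.41) and 0.31 for Npas4 (from -0.53 to 1.14). It was -0.0020 for Homer2 (from -0.32 to 0.32) and -0.026 for Homer3 (from -0.19 to 0.14). None of the 5 members passed, with a limma adjusted p of 0.999 for each, nor did any of the 19141 genes, of which 529, or 2.76%, had an unadjusted p under 0.05, as against 0 of the 5 members. The intervals for Homer1, Arc and Npas4 are wide and leave room for effects that differ by more than 1 in log2. Without animals 18 and 21 the value turned to -0.48 for Arc and to -0.13 for Npas4. Males minus females on placebo gave -0.20 for Homer1 (95% interval from -0.99 to 0.58), -0.08 for Homer2 (from -0.32 to 0.17), 0.025 for Homer3 (from -0.10 to 0.15), 0.21 for Arc (from -0.70 to 1.12) and -0.0063 for Npas4 (from -0.63 to 0.62). Each had a limma adjusted p of 0.999, where 0.047% of all genes were called, and 0 of the 5 members had an unadjusted p under 0.05, as did 3.07% of all genes. Males minus females on GnRH gave 0.31 for Homer1 (95% interval from -0.39 to 1.00, limma adjusted p = 0.947), 0.40 for Arc (from -0.41 to 1.21, 0.940) and 0.30 for Npas4 (from -0.26 to 0.85, 0.937), where 0.0522% of all genes were called. Homer2 and Homer3 gave -0.08 and -0.0013, with limma adjusted p of 0.955 and 0.998, and 0 of the 5 members had an unadjusted p under 0.05, as did 5.53% of all genes.

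Levels between the genes were set per kilobase of merged exons, again as group means in log2. In placebo animals Npas4 and Arc were the highest, at 6.97 and 6.74 in females and 6.97 and 6.94 in males, a difference between these genes within their SD. Homer2 followed at 6.31 and 6.23, then Homer1 at 5.50 and 5.30 and Homer3 at 4.88 and 4.91. In GnRH animals Arc was highest, at 7.97 in females and 8.37 in males, with Npas4 at 7.65 and 7.95 within the spread of Arc. Homer1 stood at 7.02 and 7.33, with Homer2 at 6.13 and 6.05 and Homer3 at 4.89 in both sexes. Homer1 was thus below Homer2 in both placebo groups, by more than the SD of either gene. It was above Homer2 by more than the SD of either in GnRH males, and by less than its own SD in GnRH females. These levels assume that reads fall over all annotated exons, so a transcript that ends early, as the short Homer1 does, is understated.

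Within groups, 3 of the members were among the most variable genes of the table. The pooled SD within the 4 groups was 0.71 for Homer1, 0.83 for Arc and 0.57 for Npas4, above 99.9%, 99.9% and 99.8% of the genes tested. Homer2 had 0.21, above 93.5%, and Homer3 0.08, above 20.7%, against a median of 0.12 over all genes tested. The SD of Homer1 was 1.00 in GnRH females against 0.35 in placebo females and 0.75 in GnRH males against 0.49 in placebo males. For Arc it was 0.53 in GnRH females against 0.40 in placebo females and 1.30 in GnRH males against 0.37 in placebo males. Npas4 had the smaller SD on GnRH in females, 0.29 against 0.37 on placebo, and the larger one in males, 0.85 against 0.40.

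Members were set against each other across the animals that received GnRH. Animals 18 and 21 stand apart for Arc and Npas4, so relations were taken over the 6 other GnRH males, a choice made after seeing the values, and over the 6 GnRH females. In the 6 males the Pearson r was 0.89 for Arc and Npas4 (exact permutation p = 0.00556, adjusted 0.158 over 38 relations) and Spearman's rho was 0.89 (exact p = 0.0333, adjusted 0.211). For Homer1 and Arc it was 0.90 (exact p = 0.0153, adjusted 0.169) with a rho of 0.94 (exact p = 0.0167, adjusted 0.211). For Homer1 and Npas4 it was 0.84 (exact p = 0.0222, adjusted 0.169) with a rho of 0.77 (exact p = 0.103, adjusted 0.434). Leaving out the 2 animals farthest from the median of the first gene, here and below, left 4 animals. In the males this gave r of 0.83, 0.76 and 0.75. In the 6 GnRH females these pairs had r of 0.36, 0.42 and 0.61 and rho of -0.03, 0.14 and 0.26, with exact p from 0.215 to 1. None of these 38 relations passed after adjustment. With 6 animals the smallest possible exact p is too large for a single pair to pass among 38 relations, however strong it is. Over all 8 GnRH males, rho was 0.95 for Homer1 and Arc, 0.93 for Arc and Npas4 and 0.90 for Homer1 and Npas4. There these pairs passed, with adjusted exact permutation p of 0.0212, 0.0212 and 0.0347, and no pair with Homer2 or Homer3 did. Animals 18 and 21 were the highest males for Homer1, Arc and Npas4. Without them rho was 0.94, 0.89 and 0.77 for these pairs in the same order, and none passed. Since 6 animals hardly allow a pair to pass, this cannot decide whether the relations rested on animals 18 and 21. Without the 2 animals farthest from the median the r of the females was -0.19 for Arc and Npas4. It was -0.55 for Homer1 and Arc and -0.36 for Homer1 and Npas4. Little can be read from these r, since 4 animals remained and the range of the first gene was narrowed. Other pairs ran the opposite way in the GnRH females. Homer3 and Npas4 had r of -0.71 (exact p = 0.125, adjusted 0.396) and rho of -0.94 (exact p = 0.0167, adjusted 0.211), against r of 0.68 and rho of 0.49 in the 6 males. Homer2 and Homer3 had r of -0.57 (exact p = 0.240, adjusted 0.481) and rho of -0.60, against r of 0.08 and rho of 0.37 in the 6 males. Whether the relations differ between the sexes was not tested.

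Atf3, a stress and activity-induced transcription factor, was set beside the members as a point of comparison. Its r with Npas4 was 0.92 in the 6 males (exact p = 0.00833, adjusted 0.158) and 0.58 in the females (exact p = 0.229, adjusted 0.481), with rho of 0.89 and 0.03, and r of 0.85 and -0.99 without the 2 animals farthest from the median of Npas4. Its r with Arc was 0.75 in the 6 males (exact p = 0.0819, adjusted 0.346) and 0.89 in the females (exact p = 0.0208, adjusted 0.169), with rho of 0.83 and 0.89, and r of 0.64 and 0.93 without the 2 animals farthest from the median of Arc. Atf3 and Homer1 had r of 0.81 in the 6 males (exact p = 0.0333, adjusted 0.181) and 0.75 in the females (exact p = 0.0958, adjusted 0.364). Their rho was 0.71 and 0.54, and r was 0.53 and -0.21 without the 2 animals farthest from the median of Homer1. Over all 8 GnRH males, Atf3 passed by rho with Npas4 and Arc (adjusted exact permutation p of 0.0212 each) and not with Homer1 (0.0679). Fos, an AP-1 subunit and immediate early gene, was compared in the same way. Its r with Homer1 was -0.80 in the females (exact p = 0.0278, adjusted 0.176) with a rho of -0.89 (exact p = 0.0333, adjusted 0.211), and -0.74 without the 2 animals farthest from the median. In the 6 males it was 0.41 (exact p = 0.379, adjusted 0.626). The level of Fos averaged 10.57 ± 0.63 in GnRH females (SD, n = 6) and 10.96 ± 0.90 in placebo females (SD, n = 5), and 11.75 ± 0.48 in GnRH males (SD, n = 8) and 11.54 ± 0.55 in placebo males (SD, n = 6). The groups overlapped, with 0 GnRH animals above every placebo animal of their sex. Fshb, the hormone subunit gene of gonadotropes, was set against Homer1, Arc and Npas4. In the 6 GnRH females and the 6 males, r lay between -0.08 and 0.67, with exact p from 0.115 to 0.921. Over all 8 GnRH males, rho was -0.17 with Homer1, -0.12 with Arc and 0 with Npas4, and none passed.

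**Figure D3:**
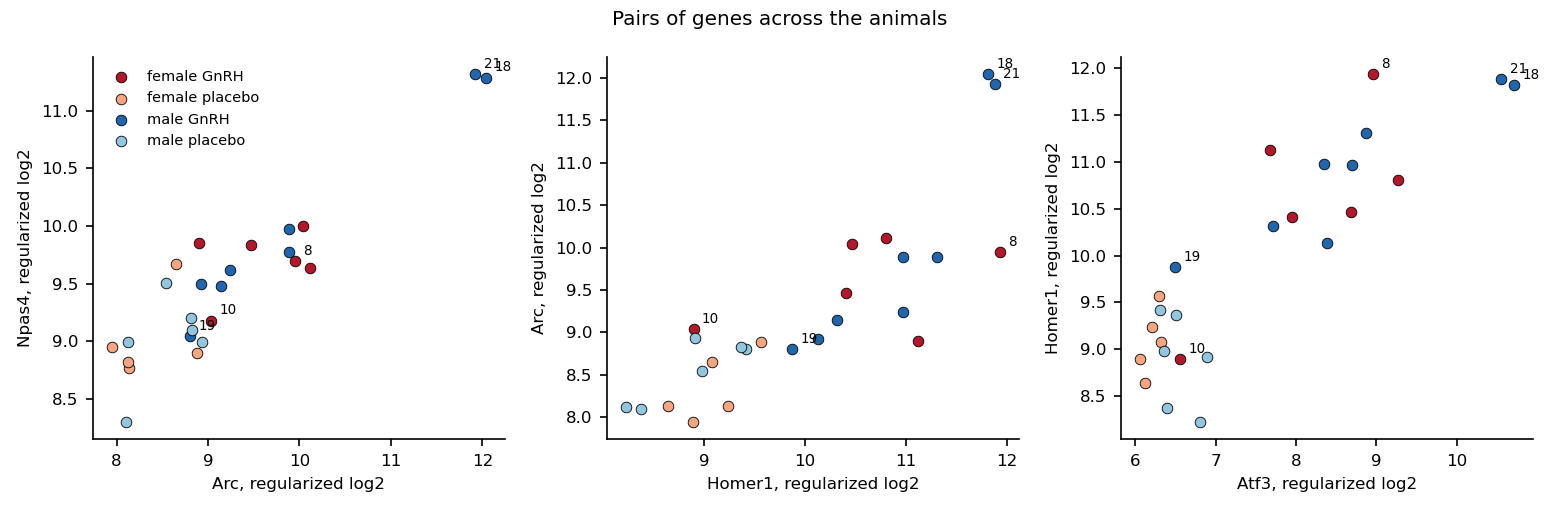
Regularized log2 values of Npas4 against Arc, Arc against Homer1 and Homer1 against Atf3, with 1 point per animal and a colour per group. Animals 18 and 21 lie at the upper end for Arc and Npas4, and animal 10 lies among placebo animals for Homer1, at 8.90, and not for Arc, at 9.04.

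The genes most like each member were ranked by Pearson r of deviations from the group means over the 25 libraries, which share their libraries and scaling, so the values carry no p. Homer1 was most like Syt4, a synaptotagmin of secretory vesicles, at 0.90, followed by Fermt2 at 0.88, Srxn1 and Klf16 at 0.86 and Erf at 0.85. Without animals 18 and 21 these were 0.90, 0.86, 0.82, 0.82 and 0.81. Arc was most like Fosl1, an AP-1 subunit, Ifrd1 and Rrad at 0.90, F3 at 0.88 and Cldn1 at 0.87, and without those 2 animals these were 0.59, 0.58, 0.72, 0.43 and 0.49. Npas4 was most like Zfp36, which drives decay of mRNAs with AU-rich elements, and Arc itself at 0.86, then Prkab2, Cyr61 and Ubald1 at 0.83, against 0.49, 0.54, 0.63, 0.44 and 0.69 without them. The likeness of Homer1 was thus about the same without the 2 animals, while that of Arc and Npas4 was lower. Homer2 was most like Nek1 and Sema5a at 0.87, Nexmif at 0.84 and Trip11 and Ptprk at 0.83. Homer3 was most like Ddx11 and Nde1 at 0.72, Cep83 at 0.71, Tomm5 at 0.70 and Rdh5 at 0.67. Between the members, Homer1 had 0.68 with Arc and 0.64 with Npas4, against 0.35 with Homer2.

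No binding partner of Homer passed the test. Of 26 receptors, channels and scaffolds, all of them tested, 0 were called by limma in either sex, and 0 in females and 3 in males had an unadjusted p under 0.05, as did 9.57% and 6.42% of all genes tested. In females 13 of 26 differences were above 0 with a median of -0.0018, and in males 10 of 26 with a median of -0.02, against medians of 0.00025 and -0.0022 over all genes tested. Shank3, a scaffold that binds Homer, had 0.08 in females and 0.14 in males, with limma adjusted p of 0.669 and 0.474. Among the others with the smallest p, Dlgap4 had 0.10 in females and 0.03 in males, Dlg3 -0.08 and -0.10, and the ryanodine receptor Ryr3 0.04 and -0.11.

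Genes listed around Arc, in AMPA receptor endocytosis and signalling, did not pass either, and not all of them are partners of Arc itself. Grin2b was too low to test, and of the 24 others 0 were called by limma in either sex, with 3 in females and 2 in males at an unadjusted p under 0.05, where all genes gave 9.57% and 6.42%. In females 15 of 24 differences were above 0 with a median of 0.05, and in males 10 of 24 with a median of -0.0067. Nptx2, a neuronal pentraxin that clusters AMPA receptors, had the largest values among those named, 0.99 in females (SE 0.29, limma adjusted p = 0.225) and 0.79 in males (SE 0.26, limma adjusted p = 0.287), and 0.50 in males without animals 18 and 21. The dynamins Dnm1 and Dnm3 had 0.16 and 0.10 in females and 0.07 and 0.18 in males. Sh3gl1, an endophilin that binds Arc, had 0.18 in females and 0.08 in males.

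Npas4's dimer partners and bHLH-PAS relatives gave 10 genes to test, since Npas1, Sim1 and Sim2 were too low. Limma called 0 of them in either sex, and 1 in each sex had an unadjusted p under 0.05, where all genes gave 9.57% in females and 6.42% in males. In females 2 of 10 differences were above 0 with a median of -0.11, and in males 6 of 10 with a median of 0.02. The partner Arnt had -0.0026 in females and 0.05 in males, and Arnt2 -0.05 and 0.02; both are named as partners, outside the rule and after their values were seen. The clock genes of the family were below 0 without passing. Arntl had -0.48 in females and -0.42 in males (limma adjusted p of 0.527 and 0.790), Npas2 -0.44 in both (0.542 and 0.689) and Clock -0.25 and -0.11. Ahrr, the repressor of the aryl hydrocarbon receptor, had -0.17 in females and -0.0087 in males.

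Other genes known to be induced by activity in neurons were mostly above 0. Fos is not on this list and is described above. Acan was too low, and of 39 tested 35 differences were above 0 in females with a median of 0.12, and 37 in males with a median of 0.42. Over all genes tested, 50.1% were above 0 in females and 48.5% in males. In females limma called 0 of the 39, with 8 at an unadjusted p under 0.05, as were 9.57% of all genes. In males 5 rose and 0 fell, where 0.496% of all genes tested were called in either direction and 0.047% fell, and 23 of the 39 had an unadjusted p under 0.05, as did 6.42% of all genes. Those that rose were Gadd45g by 0.46 (limma adjusted p = 0.00774), the nuclear receptor Nr4a3 by 1.44 (0.0108), Vgf by 1.15 (0.0171), Scg2 by 0.67 (0.0209) and the kinase Pim1 by 0.51 (0.0314), Pim1 being named after its value was seen. Vgf and Scg2 encode granule proteins that are cut into secreted peptides. In females the same genes had 0.38, 1.00, 0.92, 0.22 and 0.45, with limma adjusted p of 0.135, 0.271, 0.221, 0.669 and 0.218. Without animals 18 and 21, 34 of the 39 were above 0 in males with a median of 0.28, and limma called 0. In fits without 1 male animal, between 3 and 8 were called, 8 of them without GnRH male 19. Gadd45g and Nr4a3 passed in all 14 such fits, Vgf and Scg2 failed in 3 each and Pim1 in 9. Vgf failed without placebo male 12, 13 or 14, and Scg2 failed without placebo male 15 or 16 or GnRH male 25. The list was put together with earlier results of these data known. Its direction, its calls and its counts of small p are therefore no independent evidence. The fits without 1 animal use the same values and do not change this.

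**Figure D4:**
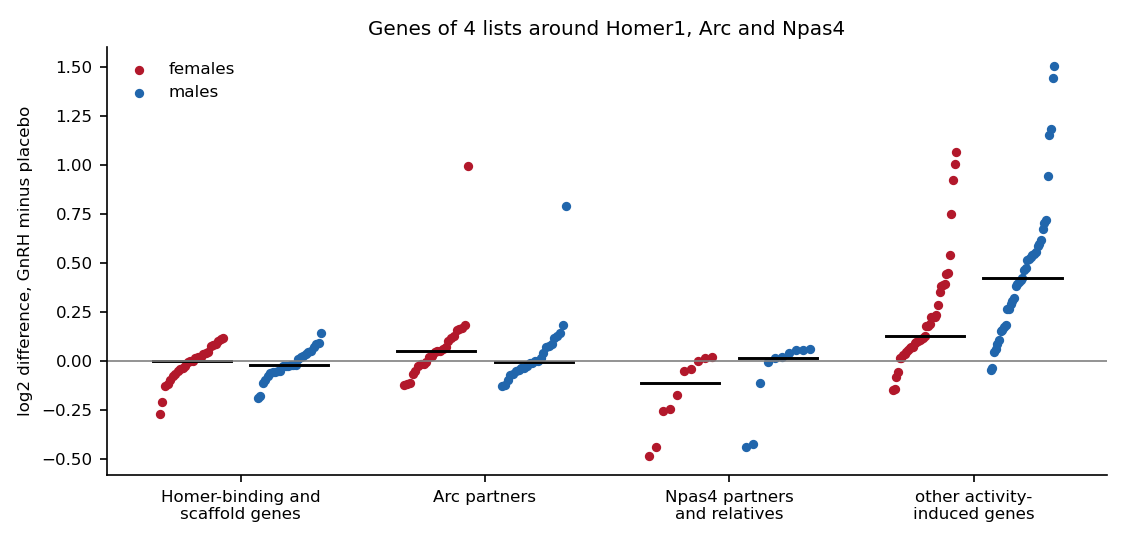
Log2 difference, GnRH minus placebo, of each tested gene of the 4 lists in females and males, with 1 point per gene and a bar at the median. The medians of the 3 lists of partners and related genes lie between -0.11 and 0.05, and those of the other activity-induced genes at 0.12 in females and 0.42 in males.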

How the data were processed

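Polyadenylated RNA from 25 pituitaries was measured, with groups taken from the labels. The deposited table holds regularized log2 values, scaled between libraries by the authors before deposit. The submitters' processing notes name STAR, featureCounts, bcl2fastq and the build mm10, while versions, strand setting and gene models were not given in the sources used here. The series' design text speaks of fewer replicates than the 8 labelled GnRH males, and the labels were followed. Nothing says whether the animals shared litters or batches.

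Testing kept genes whose mean reached 3 and used limma 3.58.1 in R 4.3.3, with 1 mean per group, a variance trend and 21 residual degrees of freedom. Tests were two-sided, adjusted by the Benjamini-Hochberg method over 19141 genes, with a threshold of 0.05, and every adjusted p of a gene is limma's. The fit was checked on simulated data. Alternatives were no filter, a minimum mean of 5, no variance trend, a robust variance prior, a fit of only the 2 groups compared, quantile normalization, array weights and leaving out each animal; leaving out GnRH males 18 and 21 together was added after seeing the data. The members, lists and markers were chosen with earlier results of these data known. Named genes were the members, up to 4 genes per list with the smallest p in either sex, the 5 genes most like each member, and Fshb, Atf3 and Fos as points of comparison; exceptions are marked in the text. Loci came from the mouse annotation of GRCm38 and promoters from RefSeq, GRCm38.p6.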

Additional observations from a re-analysis of the deposited data

Results flagged for a closer look

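Each of the 5 members was examined in each of the 4 groups, which hold 5 to 8 animals. Of these 20 sets of values, 2 held an animal far from the others, where chance gives about 1 in 20. The sets share their animals. Homer3 was 6.90 in placebo male 16, and the gap to the nearest animal took 0.807 of the range, above the limit of 0.625 for 6 animals. Without it the difference between GnRH and placebo males was 0.02. Npas4 was 9.67 in placebo female 2, with a gap of 0.803 of the range, above the limit of 0.710 for 5 animals. Without it Npas4 differed by 0.84 between GnRH and placebo females.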

How the results depend on the processing

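No paired analysis was possible because no animal number is shared between groups. With a minimum mean of 5, no variance trend, a robust variance prior or only the 2 groups compared, every value kept its direction and its side of the threshold; over all alternatives, the limma adjusted p of Arc in females ran from 0.0624, with only the 2 groups compared, to 0.609, without GnRH female 6. Without a filter on low values 7 genes were called in females and 42 in males. Array weights gave 62 and 239, and with them the differences in males were 1.58 for Arc and 1.08 for Npas4. Quantile normalization turned the direction of 3 values near 0, to -0.011 for Homer3 in females, 0.0025 for Npas4 between the sexes on placebo and 0.0022 for Homer3 between the sexes on GnRH. Array weights turned the effect difference of Homer2 to 0.052, Npas4 between the sexes on placebo to 0.0050 and Homer3 between the sexes on GnRH to 0.0013. Without GnRH males 18 and 21, 38 genes were called in males, the effect differences of Homer2, Arc and Npas4 were 0.0089, -0.48 and -0.13, and males minus females on GnRH gave -0.0079 for Homer1, -0.27 for Arc and -0.13 for Npas4.

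Leaving out 1 animal at a time, 4 (without GnRH female 6) to 67 (without GnRH female 10) genes were called in females, 46 (without placebo male 14) to 153 (without GnRH male 19) in males, 0 for the effect difference, 7 to 9 between the sexes on placebo and 8 to 17 on GnRH (17 without GnRH female 10). In females Homer1 ran from 1.26 to 1.86, Homer2 from -0.24 to -0.11, Homer3 from -0.024 to 0.035, Arc from 1.13 to 1.37 and Npas4 from 0.62 to 0.84. In males Homer1 ran from 1.89 to 2.18, Homer2 from -0.25 to -0.13, Homer3 from -0.039 to 0.023, Arc from 1.13 to 1.59 and Npas4 from 0.80 to 1.12. The effect difference ran from 0.17 to 0.77 for Homer1, -0.070 to 0.063 for Homer2, -0.054 to 0.016 for Homer3, -0.10 to 0.36 for Arc and 0.12 to 0.44 for Npas4. Between the sexes on placebo Homer1 ran from -0.31 to -0.072, Homer2 from -0.14 to -0.0068, Homer3 from -0.018 to 0.040, Arc from 0.11 to 0.34 and Npas4 from -0.10 to 0.16. On GnRH these were -0.036 to 0.57, -0.14 to -0.017, -0.029 to 0.029, 0.10 to 0.57 and 0.11 to 0.44. The causes were not tested. The depth is unknown, so what it limits could not be set.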
